A study of Mus musculus with 34 samples.

Results

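Solute carriers are membrane proteins that move amino acids, sugars, ions, metals, vitamins, nucleosides and metabolites into and out of cells and organelles. Unlike ion pumps they burn no ATP themselves: most exchange one solute for another or couple uptake to the sodium or proton gradient that pumps such as the sodium-potassium ATPase maintain. In the intestine they carry out nutrient absorption and salt and bicarbonate transport, and tumour cells use them to take up the amino acids, folate and nucleosides that growth requires. The members described here were the rows of the count table whose Ensembl identifier belonged to a mouse symbol of the form Slc, family number, a, member number, without the mitochondrial carriers of family 25 and without Slc2a1, Slc16a1, Slc16a3, Slc7a11, Slc7a5, Slc3a2 and Slc24a3. Of the 14107 genes with counts, 194 carried such a symbol, 39 belonged to family 25 and 7 were named above, which left 148 members, all of them protein-coding. The annotation held 280 protein-coding genes that met the rule, and the other 132 were not analysed here. By the substrate each is best known for, the members fell into 15 classes, the largest being metals with 25 genes and amino acids with 21.

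RNA was sequenced from 3 murine colorectal cancer lines (NaJa-G, NaJa-F and NaJa-D), each grown from the peritoneal lavage of a different mouse that had received a colon organoid transplant. All of them share the genotype VillinCreERT2::BrafV600E/+::Trp53R172H::APCdel on a C57BL/6N background: the villin promoter restricts the tamoxifen-inducible Cre to intestinal epithelium, recombination was switched on by 4-hydroxytamoxifen in the organoids before transplantation, and the organoids came from 1 donor. The study describes NaJa-D as epithelial-like, NaJa-G as mesenchymal-like and NaJa-F as lying between them, and reports that wild-type alleles from host cells were lost on passaging. Cells received 0.5 µM encorafenib, an inhibitor of mutant BRAF, or the solvent DMSO for 1 or 5 days, with fresh medium and agent at day 0 and, for the later time point, also at days 2 and 4. This gives 12 groups of line, agent and day, 10 with 3 libraries and 2 with 2 libraries (treated NaJa-F at day 5 and untreated NaJa-G at day 5), or 34 libraries in all.

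Each library held between 46007050 and 80121299 counts, of which the members took 0.815% to 1.2%. One library, titled replicate 3 of NaJa-D DMSO day 1, gives NaJa-G as its cell line. Its title was followed here, and counts that rest on it are given with and without it. Each of the 6 DMSO libraries titled NaJa-D, this one among them, held 0 to 2 counts of Slc5a7 and 0 to 4 of Slc15a2. The 5 DMSO libraries of NaJa-G held 311 to 615 and 64 to 190. All 8 epithelial genes checked were in the table, with a summed level of 5606 to 6750 CPM (counts scaled to the library total) in untreated NaJa-D, 4629 to 5721 CPM in untreated NaJa-F and 2610 to 4129 CPM in untreated NaJa-G. Of 8 fibroblast genes, 6 were in the table (not Lum and Thy1), and their sum stayed at or below 9.11 CPM in NaJa-D and NaJa-F and ranged from 20.2 to 137.0 CPM in NaJa-G. Of 6 mesothelial genes 5 were in the table (not Wt1), among them Krt19, which the epithelial list holds too; without Krt19 the other 4 summed at day 1 to 1243 to 1520 CPM in untreated NaJa-D, 743 to 985 CPM in NaJa-F and 558 to 724 CPM in NaJa-G. Of 4 endothelial genes 1 was in the table. Of 7 immune genes, Cd68 and Csf1r were in the table, at a summed 3.64 to 10.2 CPM, and the defining leukocyte gene Ptprc was not. Nothing in the labels says that replicates were separate cultures, so the p-values measure the spread between these libraries, which may be technical.

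Taurine, choline, amino acid and chloride carriers were the most abundant members. Every member reached a mean of at least 1 CPM in at least 1 group, and 112 of 148 did so in every group. The first of these counts may follow from the filter behind the table, which was not tested. Levels are set side by side as CPM per kilobase of annotated exon, averaged over the DMSO libraries. On that scale the members ranged from 0.020 to 90.9 with a median of 4.57, and the 10 highest made up 35.6% of the sum over all members. Slc6a6, which imports taurine, was the highest at 90.9, followed by the neutral amino acid carrier Slc38a2 at 67, the choline transporter-like genes Slc44a2 and Slc44a1 at 60.0 and 57.2, the arginine and lysine carrier Slc7a1 at 55.5 and the sodium-potassium-chloride cotransporter Slc12a2 at 52.7. The zinc importers Slc39a1 at 46.3 and Slc39a6 at 41.4 led the metals, and the nucleoside carrier Slc29a1 at 40.5 led its class. At the other end, 40 members lay under 1 CPM per kilobase. Summed over a class, metals (325 CPM per kilobase over 25 genes) and amino acids (299.6 over 21 genes) stood highest, and peptides (12.1 over 2 genes) lowest.

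In DMSO most solute carriers were lower in the intermediate and in the mesenchymal-like line than in the epithelial-like one. Day 1 and day 5 libraries were averaged, and a gene was called at a limma adjusted p below 0.01 over all 14107 genes. NaJa-F set against NaJa-D gave 111 called members (75%, beside 61.6% of all genes), of which 20 were higher and 91 lower in NaJa-F, where all genes split into 32.6% higher and 29.0% lower. NaJa-G set against NaJa-D gave 123 (83.1%, beside 67.4% of all genes), 36 higher and 87 lower, beside 33.3% and 34.1%. These 2 contrasts had a median log2 fold change of -0.46 and -0.35 over the members, and of 0.021 and 0.008 over all genes; both share the NaJa-D libraries. NaJa-G and NaJa-F differed in 99 members (66.9%, beside 54.4%), 52 higher and 47 lower in NaJa-G, beside 25.2% and 29.2%. With a fold change of at least 2 also required, 28, 49 and 27 members were left in these 3 contrasts, beside 12.6%, 20.4% and 14.8% of all genes. Without the library that names another line, the counts against NaJa-D were 111 and 122. More epithelial and mesothelial genes were called lower than higher in these lines too. Of the 8 epithelial genes 4 were lower and 2 higher in NaJa-F (median -0.50), and 7 lower and 0 higher in NaJa-G (-1.36). Of the 5 mesothelial genes 4 (-0.85) and 5 (-1.89) were lower and 0 higher. Their part in the carriers' levels was not tested. In bulk RNA, fewer cells that express a gene and less of its RNA per cell cannot be told apart.

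**Figure D1:**
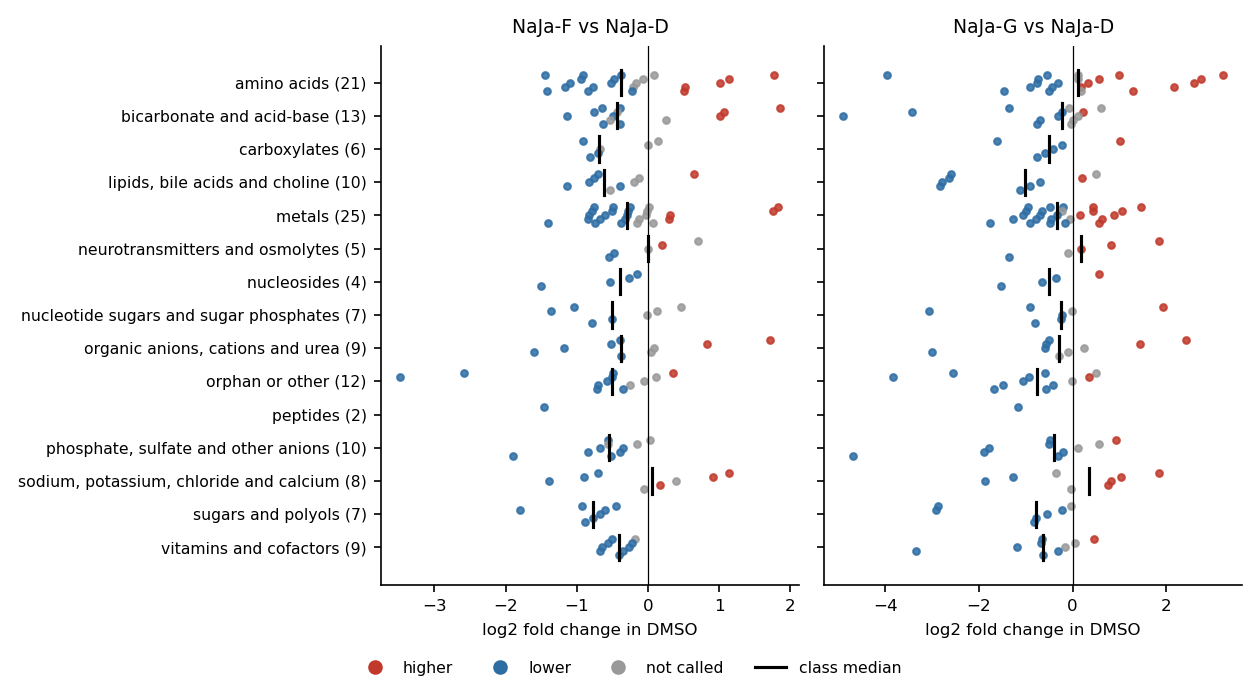
Log2 fold change in DMSO of each solute carrier gene (dots) by substrate class, with the number of members in brackets and the class median as a black line, for NaJa-F and NaJa-G against NaJa-D. Red dots were called higher, blue dots lower and grey dots neither. Slc5a7 and Slc15a2, with 4 counts or fewer in each DMSO library of NaJa-D and NaJa-F, are not drawn, nor is the median of the peptide class. All 7 members of the sugar class were called lower in NaJa-F, beside 29.0% of all genes.

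By class, the sugar and polyol carriers were called lower in NaJa-F in 7 of 7 genes and in NaJa-G in 6 of 7, none higher. The vitamin carriers were lower in 8 and 6 of 9. Beside these and the counts below, 29.0% of all genes were lower and 32.6% higher in NaJa-F. In NaJa-G the shares of all genes were 34.1% and 33.3%. Of the 10 carriers of lipids, bile acids and choline, 5 were lower and 1 higher in NaJa-F, and 7 lower and 2 higher in NaJa-G, where the class median was -1.02. Amino acid carriers split differently: 12 lower and 5 higher of 21 in NaJa-F, but 9 lower and 9 higher in NaJa-G. Carriers of sodium, potassium, chloride and calcium did not share a direction either: 4 were higher and 2 lower of 8 in NaJa-G.

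Genes of anion, bicarbonate, vitamin, sugar phosphate and amino acid transport were among those far lower in NaJa-G. Slc26a9, a chloride channel and exchanger of mucosal epithelia, stood at 35, 39.2 and 38.6 CPM in the DMSO day 1 libraries of NaJa-D, at 6.91, 7.6 and 7.08 CPM in those of NaJa-F and at 1.18, 1.59 and 1.76 CPM in those of NaJa-G. The lines did not overlap. Relative to NaJa-D the log2 fold change, here and below ± its standard error (SE) and with limma's adjusted p, was -1.90 ± 0.057, adjusted p = 1.31e-21 in NaJa-F and -4.70 ± 0.12, adjusted p = 9.83e-24 in NaJa-G. Slc4a11, a proton-conducting member of the bicarbonate family, measured 245, 275 and 278 CPM for NaJa-D, 150.3, 165 and 171 CPM for NaJa-F and 28.1, 32.3 and 31 CPM for NaJa-G. For this gene NaJa-G was below both other lines, with a log2 fold change of -3.43 ± 0.046, adjusted p = 6.24e-30, relative to NaJa-D. Slc52a3, which takes up riboflavin, was likewise lowest in NaJa-G, at 4.82, 5.25 and 4.54 CPM, compared with 36.2, 41.7 and 35.5 CPM for NaJa-D and 29.8, 28.9 and 27.6 CPM for NaJa-F (G against D -3.35 ± 0.078, adjusted p = 1.1e-24). The sugar-phosphate exchanger Slc37a1 (-3.06 ± 0.087) and the cationic amino acid family member Slc7a4 (-3.97 ± 0.12) were also called far lower in the G than in the D line.

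Slc4a4, the electrogenic sodium-bicarbonate cotransporter, was highest in the intermediate line. In DMSO at day 1 the NaJa-F libraries held 161, 152 and 141 CPM, those of NaJa-D 37.5, 38.2 and 43.5 CPM and those of NaJa-G 22.7, 23.6 and 21.9 CPM. The log2 difference between NaJa-F and NaJa-D was 1.85 ± 0.056, adjusted p = 1.47e-21, and NaJa-G stood at -2.62 ± 0.060, adjusted p = 1.61e-24 relative to NaJa-F, with no overlap in either. Slc4a2, a chloride-bicarbonate exchanger, likewise exceeded its NaJa-D level in NaJa-F, by 1.06 ± 0.054. It shares 13.7% of its exon length with Fastk on the opposite strand, and whether the counting used strand is not given, so its value is uncertain. The choline transporter-like gene Slc44a3 had the same order as Slc4a4. It stood at 17 ± 0.602 CPM for NaJa-F, 10.6 ± 0.363 CPM for NaJa-D and 1.63 ± 0.0934 CPM for NaJa-G at day 1 (mean ± SD, n = 3). The log2 fold change of NaJa-G relative to NaJa-F was -3.47 ± 0.070, adjusted p = 8.84e-26 by limma.

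Fewer members were higher in the less epithelial lines. Slc6a17, a neutral amino acid carrier known from synaptic vesicles, was at 10.6, 10.6 and 10.6 CPM in NaJa-G at day 1 in DMSO, where NaJa-F had 5.88, 5.73 and 5.01 CPM and NaJa-D 1.26, 2.02 and 1.94 CPM. The libraries of the 3 lines did not overlap, and the log2 fold change of NaJa-G was 2.74 ± 0.104, adjusted p = 1.15e-19, relative to NaJa-D, and 0.97 ± 0.067 relative to NaJa-F. The magnesium carrier Slc41a2 was called higher in both lines than in NaJa-D (1.83 ± 0.093 for the F and 1.46 ± 0.098 for the G line). Slc12a4, a potassium-chloride cotransporter, the sulfate carrier Slc26a2 and Slc7a7, a carrier of cationic and neutral amino acids, were higher in the G than in the D line, by 1.03 ± 0.048, 0.94 ± 0.065 and 0.99 ± 0.055. The heme carrier Slc48a1 was higher in NaJa-G than in NaJa-F by 0.90 ± 0.052.

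The choline carrier of nerve endings, Slc5a7, and the peptide carrier Slc15a2 were nearly specific to the NaJa-G libraries by count. Slc5a7 had 0 to 2 counts in each of 6 NaJa-D DMSO libraries, 0 to 4 in 6 NaJa-F libraries and 311 to 615 in 5 NaJa-G libraries. Slc15a2 had 0 to 4 counts in each DMSO library of NaJa-D and of NaJa-F, and 64 to 190 in those of NaJa-G. No fold change is given, since so few counts in the lower lines fix none. Both genes may have been in the table only through the line in which they are high, so their difference between lines may have been a condition of being measured. The reverse held for Slc9a4, a sodium-proton exchanger, with 26 to 56 counts in NaJa-D, 28 to 49 in NaJa-F and 0 to 8 in NaJa-G in DMSO.

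Encorafenib moved solute carriers in both directions in each line. In NaJa-D it changed 81 of 148 members at day 1 (54.7%, beside 44.9% of all genes), 40 upwards (all genes 23.7%) and 41 downwards (all genes 21.2%), and 66 at day 5 (44.6%, beside 33.0%), 27 upwards (18.3%) and 39 downwards (14.7%). For NaJa-F the counts were 59 at day 1 (39.9%, beside 29.5%), 32 upwards (17.5%) and 27 downwards (12%), and 41 at day 5 (27.7%, beside 18.2%), 21 upwards (9.70%) and 20 downwards (8.50%). NaJa-G had the most, 103 at day 1 (69.6%, beside 64.0%), 63 upwards (35.3%) and 40 downwards (28.7%), and 87 at day 5 (58.8%, beside 53.2%), 47 upwards (28.5%) and 40 downwards (24.7%). The share of members called was thus somewhat above that of all genes in each comparison. The members' median fold change stayed near 0, from -0.027 to 0.067 on the log2 scale, and their median size of change ran from 0.243 in NaJa-F at day 5 to 0.557 in NaJa-G at day 1, where all genes had 0.167 and 0.474.

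A fold change of at least 2 was passed in NaJa-D by 24 members at day 1 and 16 at day 5 (all genes 7.82% and 5.51%), in NaJa-F by 9 and 6 (4.90% and 4.10%) and in NaJa-G by 47 and 39 (20.4% and 16.0%). As shares of 148 these were 16.2% and 10.8%, then 6.08% and 4.05%, and 31.8% and 26.4%. Leaving out the library that names another line gave 69 members at any fold in NaJa-D at day 1, and leaving out replicate 3 of the treated arm, which differed most from its replicates, gave 91. Fitting only the groups compared gave 49 there.

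**Figure D2:**
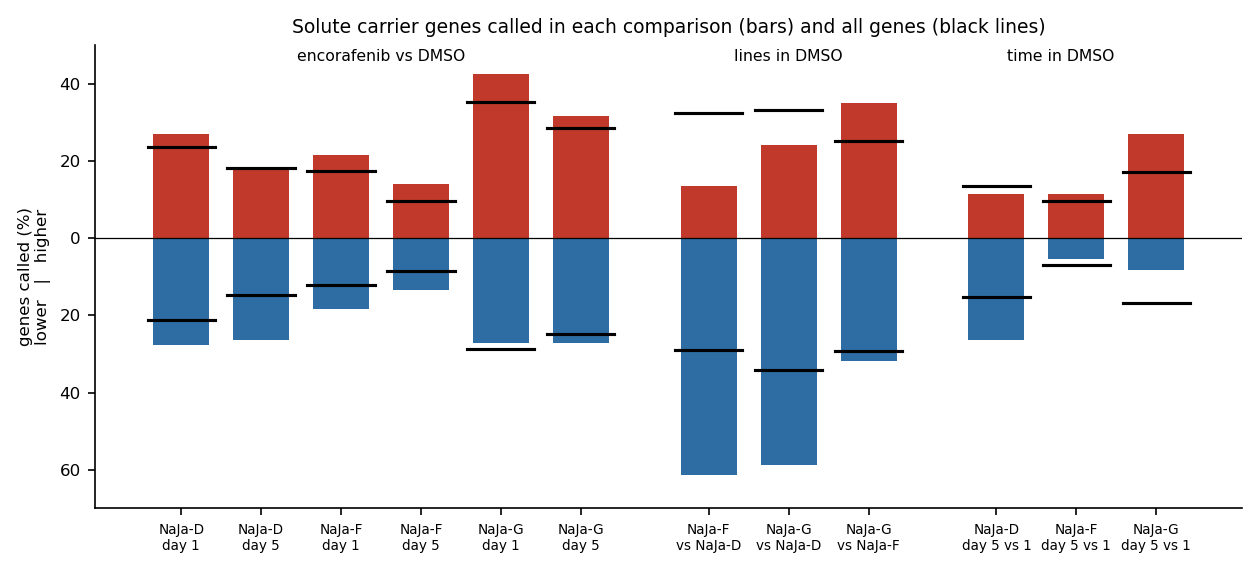
Share of the 148 solute carrier genes called higher (red, upwards) or lower (blue, downwards) in percent, for encorafenib against DMSO by line and day, between lines in DMSO, and for day 5 against day 1 in DMSO. Black lines give the same share over all 14107 genes. The members exceeded all genes most among those lower in NaJa-F and NaJa-G than in NaJa-D.

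Summed epithelial gene levels moved with the drug as well: at day 1 the treated libraries had 7341 to 9560 CPM for NaJa-D, 7182 to 7675 CPM for NaJa-F and 5113 to 5267 CPM for NaJa-G, above every DMSO library of the same line. The 5 mesothelial genes summed at day 1 to 2239 to 2502 CPM without and 4896 to 5291 CPM with encorafenib in NaJa-D, to 1671 to 1789 and 2597 to 2850 CPM in NaJa-F and to 1361 to 1403 and 3212 to 3491 CPM in NaJa-G. Without Krt19 the treated libraries of these lines had 2612 to 3528, 1105 to 1176 and 1329 to 1523 CPM. Between 3 and 5 of the 5 were called higher in each of the 6 comparisons and none lower. The 6 fibroblast genes in NaJa-G summed to 57.6 to 78.0 CPM without and 95.6 to 112 CPM with encorafenib at day 1, and to 20.2 to 22.9 CPM without and 121 to 137 CPM with it at day 5. The part of these lists in the carriers' changes was not tested.

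The 6 comparisons of line and day share no library. Called higher in all 6 were 15 members (10.1%, beside 5.08% of all genes), and 11 were called lower in all 6 (7.43%, beside 3.07%). Another 16 members were called in none (10.8%, beside 16.8% of all genes). Without the library that names another line the counts were again 15 and 11. By day, 23 members were higher and 22 lower in all 3 lines at day 1 (all genes 12.2% and 7.90%), and 15 and 13 at day 5 (6.67% and 4.28%). At least 1 of the 6 comparisons called 132 members (89.2%, beside 83.2% of all genes). Among the genes that rose were Slc31a2, Slc39a8 and Slc40a1 among the metal carriers, Slc4a4 and Slc9a7 in acid-base transport, Slc44a3 for choline, Slc46a1 for folate, Slc7a4 among amino acid carriers, Slc17a5 for sialic acid, Slc18a1 for monoamines, Slc37a1 for sugar phosphates, and Slc23a3, Slc35a5 and Slc46a3 among those with another or no settled substrate. Those that fell were the folate and thiamine carriers Slc19a1 and Slc19a2, Slc29a1 for nucleosides, Slc1a5 for glutamine, the phosphate carrier Slc20a2, the zinc and iron importer Slc39a14, the sodium-proton exchanger Slc9a2, the monocarboxylate family genes Slc16a6 and Slc16a13, the urea carrier Slc14a1 and the vesicular glutamate carrier Slc17a6. Slc16a6 shares 21.5% of its exon length with Amz2 on the opposite strand, and whether the counting used strand is not given in the sources used here, so its value is uncertain. Slc14a1 was at few counts with the drug, 4 to 7 in NaJa-G at day 1 and 3 to 4 in NaJa-F at day 5, where the DMSO libraries had 221 to 289 and 210 to 240 counts, so its fitted fold change there depends on the offset added to low counts.

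**Figure D3:**
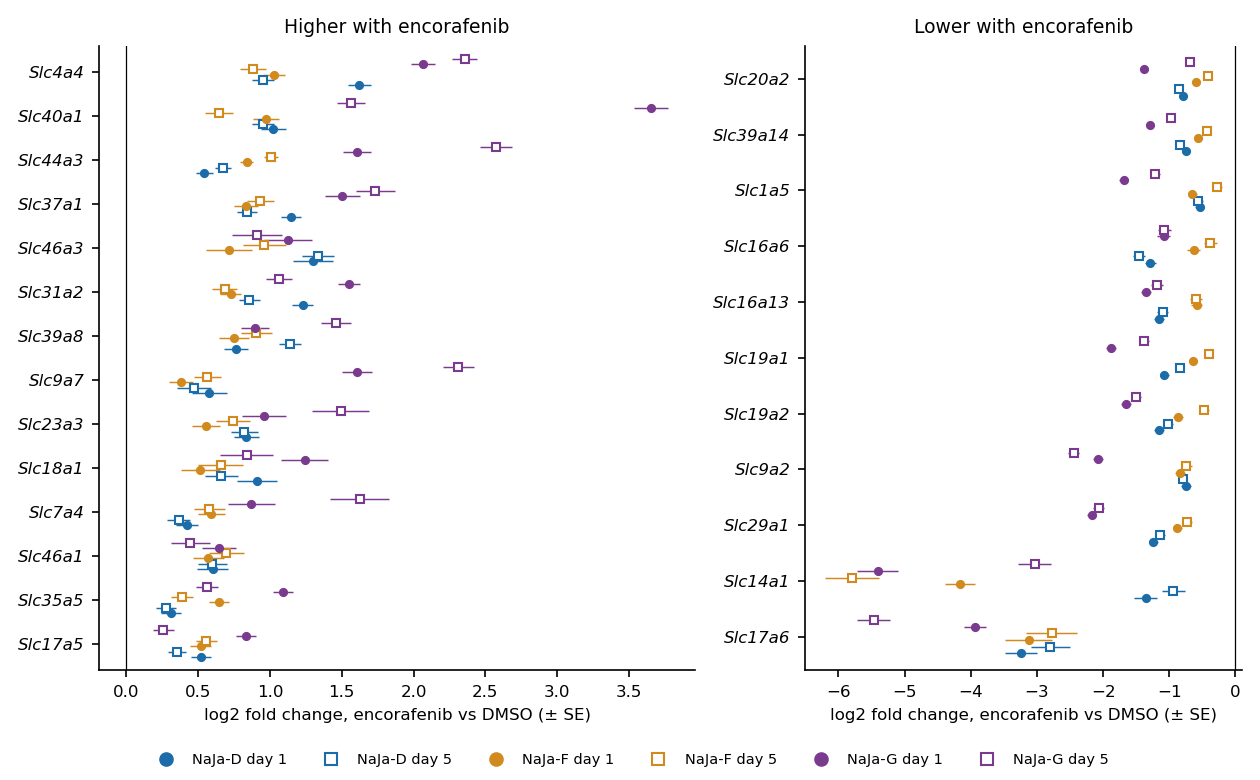
Log2 fold change of encorafenib against DMSO, with its SE as a bar, for members called higher (14 of 15, left) and lower (11, right) in all 6 comparisons. Colours give the line, filled circles day 1 and open squares day 5. The largest rise of the left panel was that of Slc40a1 in NaJa-G at day 1, and the deepest falls of the right panel belonged to Slc14a1 and Slc17a6, its least abundant genes in DMSO.

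The 250 bases before annotated starts were read from the RefSeq promoters of GRCm38.p6, which matched 109 of the 148 members, to see what letters the members of these 2 sets share. Of those with a single start, 4 that rose and 1 that fell are printed 5′ to 3′ on the strand of the gene. Capitals mark matches, on either strand, to CCAAT (the CCAAT box), GGGCGG (the GC box), CACGTG (the E-box), TGANTCA (AP-1), TGACGTCA (the cyclic AMP response element), CCGGAAG (ETS factors) and GTAAACA (forkhead factors). None of these motifs contains another.
Slc35a5, chr16:45158674-45158923, minus strand: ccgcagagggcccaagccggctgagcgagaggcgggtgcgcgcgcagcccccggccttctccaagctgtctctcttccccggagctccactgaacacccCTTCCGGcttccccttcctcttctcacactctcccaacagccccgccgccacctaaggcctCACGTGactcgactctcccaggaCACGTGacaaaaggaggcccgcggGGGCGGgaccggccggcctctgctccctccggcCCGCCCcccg
Slc37a1, chr17:31295974-31296223, plus strand: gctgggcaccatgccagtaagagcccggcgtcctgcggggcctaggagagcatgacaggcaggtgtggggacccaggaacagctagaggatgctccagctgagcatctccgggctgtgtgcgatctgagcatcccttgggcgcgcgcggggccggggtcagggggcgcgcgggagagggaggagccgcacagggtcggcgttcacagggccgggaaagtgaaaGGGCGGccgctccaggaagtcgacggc
Slc17a5, chr9:78588046-78588295, minus strand: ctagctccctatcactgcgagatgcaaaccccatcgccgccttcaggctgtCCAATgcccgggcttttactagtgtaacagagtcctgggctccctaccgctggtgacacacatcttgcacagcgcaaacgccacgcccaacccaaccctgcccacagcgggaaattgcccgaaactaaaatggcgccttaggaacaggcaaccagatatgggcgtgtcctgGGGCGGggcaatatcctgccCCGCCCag
Slc46a1, chr11:78465451-78465700, plus strand: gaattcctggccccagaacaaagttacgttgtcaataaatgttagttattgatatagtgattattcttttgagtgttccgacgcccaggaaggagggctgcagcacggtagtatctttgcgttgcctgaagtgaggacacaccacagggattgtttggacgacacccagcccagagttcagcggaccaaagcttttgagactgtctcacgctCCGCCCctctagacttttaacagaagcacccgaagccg
Slc19a2, chr1:164248796-164249045, plus strand: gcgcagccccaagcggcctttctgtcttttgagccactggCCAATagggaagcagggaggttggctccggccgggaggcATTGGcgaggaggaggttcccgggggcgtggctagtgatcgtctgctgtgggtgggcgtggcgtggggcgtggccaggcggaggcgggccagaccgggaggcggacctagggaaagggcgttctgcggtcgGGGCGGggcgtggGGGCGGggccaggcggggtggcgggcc
All 5 hold at least 1 GC box, but they were picked after the values were seen. Slc23a3 and Slc31a2, which also rose and have a single start, hold none of the motifs. The GC box was in 32.7% of all 32851 promoter windows and in 56.7% of the 150 member windows. Member windows were also richer in G and C, with a median of 60.8% beside 52.4% in all windows. The E-box was in 6.02% of all windows and 11.3% of member windows, and the ETS motif in 6.91% and 8.0%. Of the 13 windows of members that rose and the 13 of members that fell, 9 and 7 held a GC box, 2 and 1 an E-box, and 1 and 0 the ETS motif. The 13 windows of members that fell came from 4 of the 11 genes, and 8 of them, with 4 of the 7 that held a GC box, from Slc29a1 alone; those of members that rose came from 11 of 15 genes. AP-1, cyclic AMP and forkhead letters were in none of these 26 windows, beside 6.75%, 1.55% and 3.17% of all windows. A match is a description of the letters and says nothing about binding.

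Among metal carriers an iron exporter, a zinc and manganese importer and a copper carrier rose, and other zinc carriers fell. Slc40a1 (chr1:45908068-45926523 in GRCm38) encodes ferroportin, the exporter through which cells release iron. In NaJa-G at day 1 it stood at 3.59, 4.31 and 3.64 CPM in DMSO and 47.6, 49.6 and 48.1 CPM with encorafenib, a log2 fold change of 3.65 ± 0.12, adjusted p = 7.89e-21. The same day it went from 19.1, 19.6 and 19 to 43, 37 and 37.4 CPM in NaJa-D (1.02 ± 0.087, adjusted p = 9.44e-11) and from 10.9, 11.9 and 10.3 to 23.4, 23 and 18.6 CPM in NaJa-F (0.97 ± 0.093, adjusted p = 1.45e-09). Treated libraries lay above untreated ones in every line, and the rise of NaJa-G exceeded that of NaJa-D by 2.63 ± 0.15, adjusted p = 4.13e-14. At day 5 the level was higher in DMSO as well, at 13.4 and 13.1 CPM in NaJa-G, and the treated libraries there held 39.6, 38.3 and 39.2 CPM (1.56 ± 0.098, adjusted p = 6.17e-14).

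Slc39a8, an importer of zinc and manganese, rose from 16.6, 18.1 and 17.6 to 38.8, 37.6 and 38.6 CPM in NaJa-D at day 5 (1.14 ± 0.078, adjusted p = 1.49e-12). In NaJa-F it rose from 6.84, 7.15 and 7.67 to 14 and 13 CPM (0.91 ± 0.11, adjusted p = 2.15e-07) and in NaJa-G from 7.74 and 8.22 to 20.4, 21.9 and 23.7 CPM (1.46 ± 0.105, adjusted p = 1.14e-12). No treated library overlapped the untreated ones at either day. Its relative Slc39a14 moved the opposite way, from 67.4, 67.4 and 67.3 to 27, 28.6 and 26.9 CPM in NaJa-G at day 1 (-1.29 ± 0.054, adjusted p = 2.78e-18) and changed by -0.75 and -0.57 in the D and F lines. Slc31a2, a copper carrier of endosomes and lysosomes, rose at day 1 by 1.55 ± 0.077 in NaJa-G, 1.23 ± 0.072 in NaJa-D and 0.73 ± 0.074 in NaJa-F. Among zinc exporters of family 30, Slc30a4 changed at day 1 by -0.64 ± 0.068 in NaJa-D and -0.72 ± 0.070 in NaJa-G, both called, and by -0.083 ± 0.069 in NaJa-F, not called, and its response in NaJa-F differed from that in NaJa-D by 0.56 ± 0.097, adjusted p = 0.000233. Slc30a5 changed by -0.41 ± 0.056 and -0.35 ± 0.056, both called, and by -0.18 ± 0.056 in NaJa-F, and its difference between NaJa-F and NaJa-D was not called (0.23 ± 0.080, adjusted p = 0.0344). Slc30a6 was called in none of the 6 comparisons. The magnesium carrier Slc41a3, low in DMSO, rose in NaJa-G from 1.49, 1.25 and 1.06 to 7.2, 6.91 and 7.83 CPM at day 1 (2.51 ± 0.14, adjusted p = 3.08e-15). Over the class of 25, the numbers higher and lower at day 1 were 5 and 9 for NaJa-D, 5 and 1 for NaJa-F and 12 and 5 for NaJa-G. All genes had 23.7% and 21.2%, 17.5% and 12%, and 35.3% and 28.7% in the same order. The class medians were -0.17, 0.042 and 0.12.

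**Figure D4:**
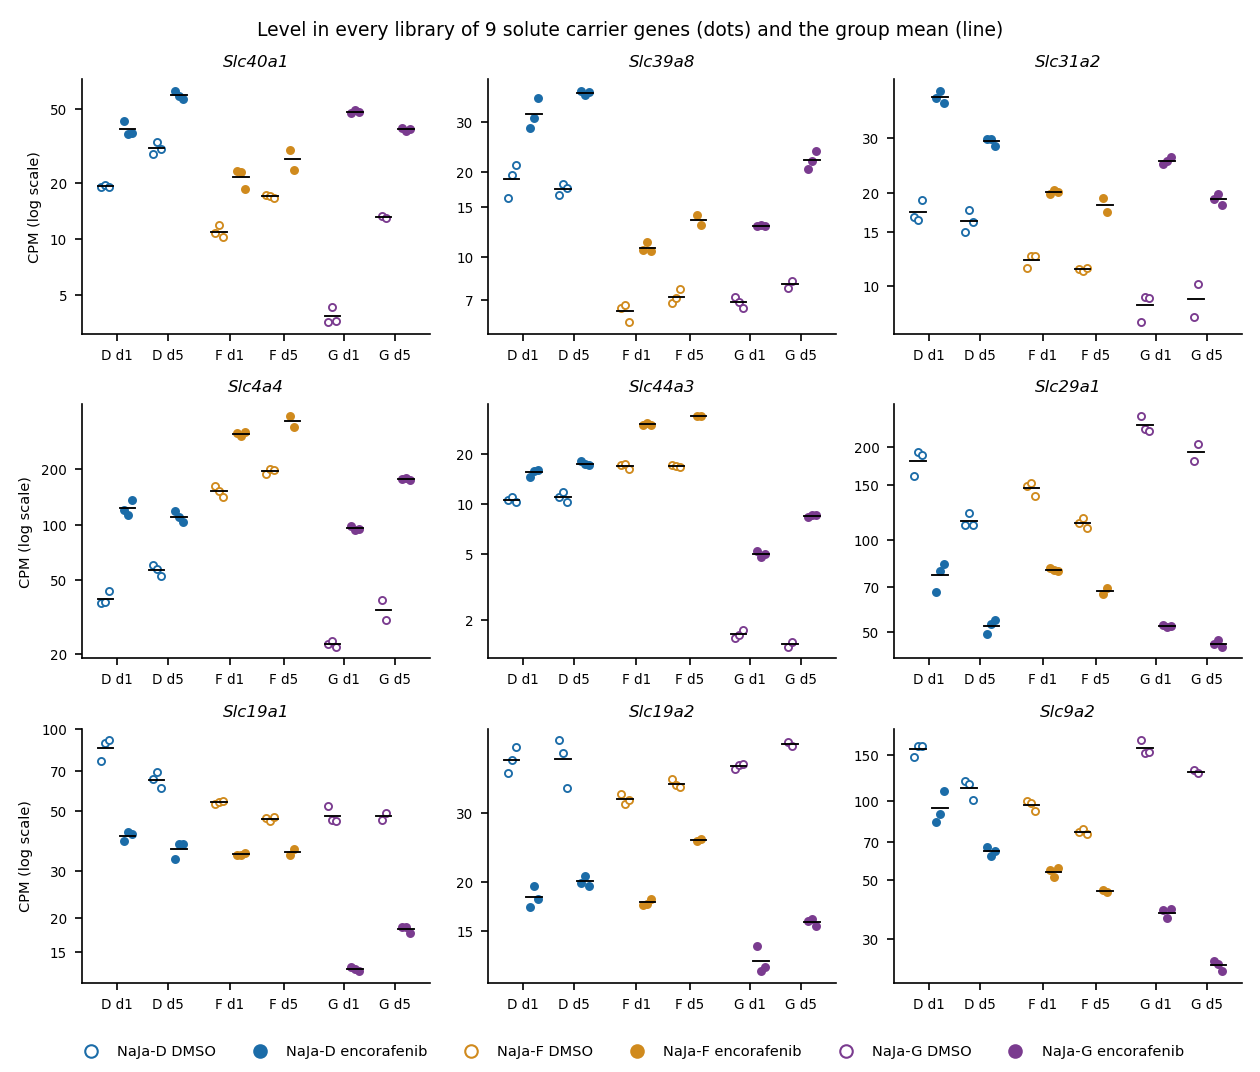
Level of 9 members in every library as CPM with trimmed-mean (TMM) scaling on a log axis, by line (D, F and G) and day (d1 and d5); open circles are DMSO, filled circles encorafenib, and black lines the group means of 2 or 3 libraries. In the first 5 panels the filled circles lie above the open ones of the same line and day, and in the last 4 below them.

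In acid-base transport the bicarbonate importer Slc4a4 rose while the proton exporter Slc9a2 fell. Slc4a4 (chr5:88886818-89239653) went from 39 and 30.4 to 176, 178 and 173 CPM in NaJa-G at day 5 (2.35 ± 0.089, adjusted p = 7.3e-19). At day 1 it went from 37.5, 38.2 and 43.5 to 119.6, 113 and 135 CPM in NaJa-D (1.62 ± 0.080, adjusted p = 1.31e-15) and from 161, 152 and 141 to 310.2, 299.8 and 314 CPM in NaJa-F (1.03 ± 0.078, adjusted p = 1.55e-11). Treated NaJa-G at day 5 stood near untreated NaJa-F, which held 188, 199.6 and 198 CPM, and no treated library overlapped its controls. Slc9a2, a sodium-proton exchanger of the apical intestinal membrane, fell from 131 and 127 to 24.6, 24.1 and 22.5 CPM in NaJa-G at day 5 (-2.44 ± 0.085, adjusted p = 1.36e-19). It changed by -0.80 ± 0.071 in NaJa-D and by -0.74 ± 0.082 in NaJa-F at day 5, and the response of NaJa-G minus that of NaJa-D was -1.64 ± 0.11, adjusted p = 3.35e-12. The Golgi exchanger Slc9a7 rose in all 6 comparisons, from 3.88 and 3.62 to 18.8, 19.5 and 17.5 CPM in NaJa-G at day 5 (2.31 ± 0.11, adjusted p = 7.54e-17). Slc4a8, a sodium-driven chloride-bicarbonate exchanger, was called lower at day 5 in NaJa-F (-0.95 ± 0.088) and NaJa-G (-1.55 ± 0.072).

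Vitamin and nucleoside carriers held several of the most uniform falls. Slc29a1 (chr17:45585200-45599606), the equilibrative carrier through which cells salvage nucleosides, was at 253, 229.8 and 226 CPM in DMSO and 52.6, 52.1 and 52.1 CPM with encorafenib in NaJa-G at day 1 (-2.17 ± 0.071, adjusted p = 1.28e-20). The fall was from 162, 192 and 188 to 67.6, 79.2 and 83.4 CPM in NaJa-D (-1.24 ± 0.069, adjusted p = 1.62e-14) and from 149.7, 153 and 138 to 80.9, 79.3 and 79 CPM in NaJa-F (-0.88 ± 0.069, adjusted p = 2.86e-11). At day 1 the NaJa-G libraries were thus the highest of the 3 lines in DMSO and the lowest with the drug. The related Slc29a2 changed by -0.67 ± 0.072 in NaJa-D and -1.68 ± 0.090 in NaJa-G at day 1, both called lower, while the lysosomal Slc29a3 was higher in NaJa-G (1.04 ± 0.079), so the class did not move as a whole. Slc29a4, which also carries monoamines, rose in NaJa-D at day 5 from 7.48, 7.11 and 7.04 to 14.2, 15.5 and 12.8 CPM (0.97 ± 0.12, adjusted p = 7.95e-08).

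Slc19a1 (chr10:77032241-77061002) encodes the reduced folate carrier. It fell from 75.9, 88.7 and 90.8 to 38.5, 41.6 and 41 CPM in NaJa-D at day 1 (-1.07 ± 0.062, adjusted p = 3.1e-14), from 52.9, 53.8 and 54.1 to 34.2, 34.2 and 34.9 CPM in NaJa-F (-0.64 ± 0.062, adjusted p = 1.89e-09) and from 51.8, 46.3 and 45.6 to 13.2, 13 and 12.7 CPM in NaJa-G (-1.88 ± 0.072, adjusted p = 3.8e-19). The thiamine carrier Slc19a2 fell alongside, with log2 fold changes of -1.16 ± 0.074, -0.87 ± 0.072 and -1.65 ± 0.077 in the same order. The proton-coupled folate carrier Slc46a1, which acts at acidic pH, moved the other way, from 24.9, 28.9 and 27 to 36, 38.6 and 49.3 CPM in NaJa-D (0.60 ± 0.11, adjusted p = 2.47e-05), with 0.57 ± 0.11 for NaJa-F and 0.65 ± 0.12 for NaJa-G. The 2 folate carriers Slc19a1 and Slc46a1 were thus called in all 6 comparisons with opposite signs. The biotin and pantothenate carrier Slc5a6 was lower at day 1 in NaJa-D (-0.72 ± 0.073) and NaJa-G (-0.86 ± 0.080), and at day 5 its change was -0.19 and -0.21, not called. Of 9 vitamin carriers 4 were lower and 3 higher in NaJa-G at day 1, beside 28.7% and 35.3% of all genes.

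Amino acid carriers went both ways. Of the 21, day 1 encorafenib libraries of NaJa-D had 4 higher and 6 lower, those of NaJa-F 2 and 3, and those of NaJa-G 9 and 6, with class medians of 0.12, -0.054 and -0.087. Slc1a5, which imports glutamine, was at 269.9, 319.8 and 321 CPM in DMSO and 206, 225 and 196 CPM with encorafenib in NaJa-D at day 1 (-0.54 ± 0.071, adjusted p = 2.73e-07). It fell from 154, 174 and 181 to 49.9, 54.2 and 53.4 CPM in NaJa-G (-1.69 ± 0.071, adjusted p = 2.75e-18) and from 136, 138 and 157 to 91.4, 91.9 and 90.4 CPM in NaJa-F (-0.65 ± 0.069, adjusted p = 1.08e-08). The decline was deeper in the G line than in the D line, with a difference of -1.15 ± 0.100, adjusted p = 3.01e-10. The sodium-coupled carriers Slc38a1 and Slc38a2 were lower in NaJa-D at day 1 (-0.58 ± 0.071 and -0.56 ± 0.057) and in NaJa-G (-0.45 ± 0.070 and -0.53 ± 0.056), and in NaJa-F Slc38a2 was lower (-0.36 ± 0.056) and Slc38a1 was not called (-0.19 ± 0.071). Slc7a7, which works at the basolateral membrane, rose from 29.9, 27.6 and 25.4 to 88.1, 82.8 and 86.8 CPM in NaJa-G (1.63 ± 0.062, adjusted p = 3.58e-19) and from 14.8, 15.7 and 15.9 to 28.6, 30.9 and 33.6 CPM in NaJa-D (1.00 ± 0.077, adjusted p = 1.1e-11), without overlap. The list of 8 carriers known as targets of the amino acid response had 7 genes in the table (not Slc43a1), of which 4, 2 and 4 were lower at day 1 in the D, F and G lines, and 0, 0 and 1 higher. At day 5 none was higher, and 6 were lower in NaJa-D, 5 in NaJa-G and 1 in NaJa-F, where 14.7%, 24.7% and 8.50% of all genes were. The day 5 changes had medians of -0.51, -0.49 and -0.19, beside 0.014, 0.011 and 0.003 over all genes.

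Of the choline transporter-like family 44, Slc44a3 rose in every comparison. Slc44a3 went from 1.37 and 1.47 to 8.31, 8.57 and 8.63 CPM in NaJa-G at day 5 (2.57 ± 0.11, adjusted p = 2.41e-17), from 17.2, 17 and 16.6 to 33.9 and 34.1 CPM in NaJa-F (1.01 ± 0.050, adjusted p = 4.39e-15) and from 11, 11.9 and 10.3 to 18.1, 17.3 and 17.2 CPM in NaJa-D (0.67 ± 0.053, adjusted p = 2.65e-11). No line showed overlap, and the rise of NaJa-G exceeded that of NaJa-D by 1.90 ± 0.13, adjusted p = 2.29e-12. The abundant Slc44a2 was higher in NaJa-G by 1.16 ± 0.052 at day 1 and 1.08 ± 0.059 at day 5, and in NaJa-D by 0.34 ± 0.058 at day 1. Fatty acid carriers of family 27 differed among themselves: Slc27a1 rose in NaJa-D at day 1 (0.89 ± 0.11), and Slc27a3 and Slc27a4 were called in none of the 6 comparisons.

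Carriers of chloride, phosphate and sulfate moved in different directions. Slc26a9 fell in NaJa-D from 35, 39.2 and 38.6 to 6.19, 7.29 and 6.6 CPM at day 1 (-2.49 ± 0.084, adjusted p = 3.53e-19) and from 22.9, 23.3 and 19.1 to 2.97, 3.57 and 3.2 CPM at day 5 (-2.73 ± 0.11, adjusted p = 7.14e-18). The treated NaJa-D libraries at day 5 were thereby lower than untreated NaJa-F ones. Slc12a2, the basolateral chloride loader of secretory epithelia, fell at day 5 from 914, 839.8 and 723 to 382, 369 and 348 CPM in NaJa-D (-1.17 ± 0.080, adjusted p = 1.59e-12) and from 410.2 and 327 to 189, 197 and 196 CPM in NaJa-G (-0.92 ± 0.086, adjusted p = 3.21e-10). Its change at day 5 in NaJa-F was -0.22 ± 0.088, not called. The phosphate carriers Slc20a1 and Slc20a2 were lower at day 1 in each line, most in NaJa-G (-1.16 ± 0.058 and -1.38 ± 0.056), then NaJa-D (-0.65 ± 0.057 and -0.79 ± 0.056) and NaJa-F (-0.39 ± 0.057 and -0.59 ± 0.056).

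Sugar, carboxylate and organic solute carriers added smaller groups. Slc2a6, a hexose carrier of lysosomes, rose in NaJa-G at day 1 from 0.903, 0.763 and 0.482 to 8.69, 9.25 and 10.9 CPM (3.73 ± 0.24, adjusted p = 4.93e-14), and by 1.55 ± 0.22 and 1.60 ± 0.23 in NaJa-D and NaJa-F. Slc5a3, which imports the osmolyte myo-inositol, was lower in NaJa-F and NaJa-G at day 1 (-0.46 ± 0.071 and -0.63 ± 0.071), and the taurine importer Slc6a6 was higher in NaJa-G (0.67 ± 0.060), and these 2 osmolyte carriers went opposite ways. Of the 6 carboxylate carriers, 3 fell in NaJa-G at day 1 and none rose, beside 28.7% and 35.3% of all genes. Slc16a6, a carrier of ketone bodies, was at 24.6, 22 and 19.7 CPM in DMSO and 7.75, 8.13 and 8.23 CPM with the drug in NaJa-D at day 5 (-1.45 ± 0.089, adjusted p = 1.26e-13), and Slc16a13 changed by -1.10 ± 0.080. Slc17a6, otherwise known from glutamatergic neurons, fell in NaJa-G from 16.8 and 16.5 to 0.558, 0.265 and 0.339 CPM at day 5 (-5.47 ± 0.25, adjusted p = 7.24e-17). The treated libraries of these last 3 genes did not overlap their controls.

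The difference between the day 5 and the day 1 response was called for 55 members in NaJa-G (25 upwards and 30 downwards, beside 31.7% of all genes, 15.5% and 16.2%). NaJa-D had 12 (3 and 9, beside 7.29%, 2.76% and 4.54%), 29 once replicate 3 of encorafenib day 1 was left out and 5 when only the compared groups were fitted, and NaJa-F had 10 (2 and 8, beside 5.88%, 0.929% and 4.95%), or 17 by DESeq2. A fold change of at least 2 was passed by 3, 4 and 19 members of the D, F and G lines, beside 1.28%, 2.03% and 9.78% of all genes. Slc22a18, an organic cation family member without a settled substrate, was higher with encorafenib at day 1 in each line, most in NaJa-G, where it went from 2.97, 2.38 and 2.63 to 8.65, 7.49 and 8.76 CPM (1.63 ± 0.13, adjusted p = 3.16e-12), and by 1.06 ± 0.099 in NaJa-D and 0.98 ± 0.19 in NaJa-F. At day 5 its values went from 3.36 and 4.02 to 1.43, 1.72 and 1.44 CPM in NaJa-G (-1.28 ± 0.18, adjusted p = 4.5e-07), and the changes in NaJa-F (-0.73 ± 0.22, adjusted p = 0.0118) and NaJa-D (-0.21 ± 0.091) were not called. The day 5 response lay below the day 1 response by a called amount in all 3 lines, with a called reversal from rise to fall in NaJa-G; the differences were -2.91 ± 0.22, adjusted p = 1.37e-11 in NaJa-G, -1.71 ± 0.29 in NaJa-F and -1.27 ± 0.13 in NaJa-D. In NaJa-G the rise of the sulfate carrier Slc26a2 was called at day 1 only, its level going from 128, 126 and 124 to 322, 329 and 323 CPM at day 1 and from 208 and 166 to 205, 215 and 209.6 CPM at day 5, a difference between the responses of -1.19 ± 0.13, adjusted p = 2.75e-08.

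The direction of the response itself differed between lines for 6 members, called in opposite directions in 2 lines on the same day with the difference called as well. Slc16a10, which carries aromatic amino acids, rose in NaJa-G at day 1 from 12, 11 and 9.75 to 33.7, 38.1 and 37.6 CPM (1.73 ± 0.097, adjusted p = 2.08e-15), and in NaJa-D it went from 8.61, 8.82 and 11.2 to 5.86, 6.32 and 8.76 CPM (-0.47 ± 0.14, adjusted p = 0.00438). The NaJa-D libraries of the 2 arms overlapped, and that call was lost without DMSO replicate 3 (limma adjusted p = 0.038), the library that names another line. At day 5 Slc16a10 in NaJa-G had turned the other way, to 32.2 and 35.9 CPM in DMSO and 18.6, 20.7 and 20.3 CPM with the drug (-0.78 ± 0.098, adjusted p = 8.21e-08). Slc4a11 was lower with encorafenib in NaJa-D at day 5, 251, 261 and 241 against 141, 135 and 141 CPM (-0.85 ± 0.056, adjusted p = 5.79e-13), and higher in NaJa-G, 19.2 and 18.5 against 28.6, 31.3 and 29.1 CPM (0.66 ± 0.072, adjusted p = 6.94e-09). Neither pair overlapped. Slc44a4, another choline transporter-like gene that also carries thiamine pyrophosphate, went from 9.17, 10.1 and 8.24 to 6.77, 6.61 and 7.41 CPM in NaJa-D at day 5 (-0.40 ± 0.073, adjusted p = 4.87e-05) and from 1.4 and 1.27 to 2.08, 2.18 and 2.32 CPM in NaJa-G (0.72 ± 0.15, adjusted p = 0.000125).

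**Figure D5:**
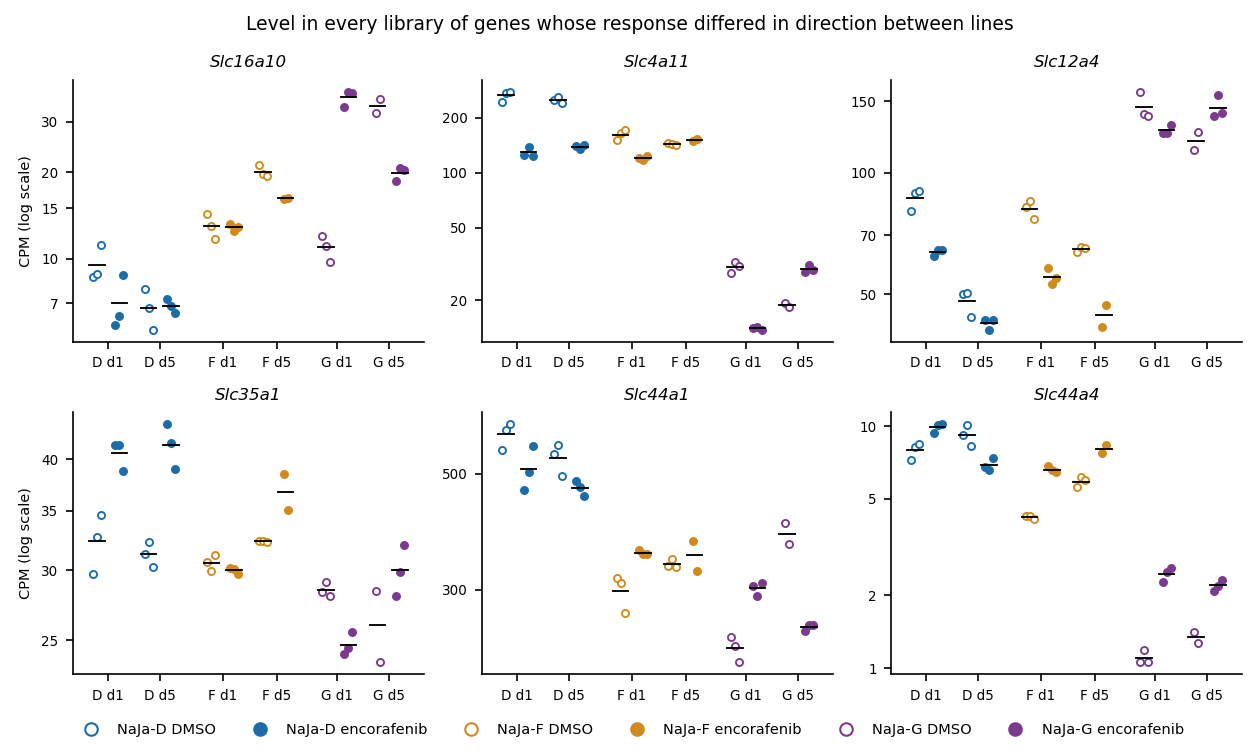
Level in every library, as CPM on a log axis, of the 6 members whose response to encorafenib went in opposite directions in 2 lines on the same day. Open circles are DMSO, filled circles encorafenib, black lines group means and colours the lines (D, F and G) at day 1 (d1) and day 5 (d5). Slc16a10 in NaJa-G rose at day 1 and fell at day 5.

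Across pairs of lines, the size of the response to encorafenib differed most often where NaJa-G was one of the pair. For NaJa-G minus NaJa-D, 56 members were called at day 1 (38 upwards and 18 downwards, beside 36.4% of all genes, 20.2% and 16.2%) and 40 at day 5 (26 and 14, beside 21.9%, 14.1% and 7.82%). For NaJa-G minus NaJa-F the counts were 55 (36 and 19, beside 33.5%, 19.2% and 14.3%) and 48 (28 and 20, beside 24.2%, 16.2% and 7.95%). For NaJa-F minus NaJa-D they were 22 (13 and 9, beside 8.79%, 4.49% and 4.30%) and 29 (21 and 8, beside 8.85%, 4.08% and 4.77%). With a fold change of at least 2 the counts at day 1 and day 5 were 22 and 20 for G minus D (9.53% and 7.33% of all genes), 20 and 20 for G minus F (6.76% and 8.11%) and 3 and 5 for F minus D (1.43% and 1.98%). The last pair moved with single libraries and with the fit: at day 1 it gave 50 once NaJa-D encorafenib replicate 3 was left out, 34 by DESeq2 and 12 when only the groups compared were fitted, and at day 5 it gave 18 without NaJa-F encorafenib replicate 1. Library size scaling changed the split of upward and downward calls to 11 and 12 for F minus D at day 1, 32 and 24 for G minus D at day 1 and 27 and 29 for G minus F at day 5. Slc26a9 fell far less in NaJa-F than in NaJa-D at day 1, with a difference of 1.94 ± 0.13, adjusted p = 6.45e-11.

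Time in culture moved members without the drug as well. From day 1 to day 5 in DMSO, NaJa-D had 56 called members (beside 29.0% of all genes), 17 higher (13.7%) and 39 lower (15.3%). NaJa-G had 52 (beside 34.1%), 40 higher (17.2%) and 12 lower (16.8%), and NaJa-F 25 (beside 16.7%), 17 higher (9.73%) and 8 lower (7.01%). With a fold change of at least 2 the counts were 7, 8 and 3, beside 2.92%, 3.96% and 1.40%. Fitting only the groups compared gave 15 members in NaJa-G and 38 in NaJa-F. The split depends on the scaling: with library sizes alone it was 34 higher and 23 lower in NaJa-D and 30 and 6 in NaJa-F. Leaving out the library that names another line gave 40 in NaJa-D, and leaving out replicate 1 of DMSO day 5 gave 33 in NaJa-G. Ferroportin (Slc40a1) rose with time in each line, by 1.78 ± 0.13 in NaJa-G and by 0.67 ± 0.089 and 0.63 ± 0.096 in the D and F lines. In NaJa-G Slc16a10 rose from 12, 11 and 9.75 to 32.2 and 35.9 CPM (1.64 ± 0.11, adjusted p = 9.29e-13), and 9 of 21 amino acid carriers were called higher there and none lower, beside 17.2% and 16.8% of all genes. Slc29a1 fell with time in all lines (-0.65 ± 0.069, -0.38 ± 0.069 and -0.30 ± 0.079), as it did with the drug, and the potassium-chloride cotransporter Slc12a4 fell in NaJa-D (-0.85 ± 0.065).

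Carriers named for intestinal absorption and secretion were described from a list of 35, of which 18 were in the table. Carriers of the absorptive surface such as Slc26a3, Slc9a3, Slc5a1, Slc6a19, Slc15a1 and Slc2a5 were not analysed here. Of the 18, 13 were called lower and 4 higher in NaJa-F, relative to NaJa-D, and 12 and 4 in NaJa-G, with medians of -0.39 and -0.49. Over all genes 29.0% and 34.1% were lower there and 32.6% and 33.3% higher. With encorafenib, 5 were higher and 6 lower in NaJa-D at day 1 and 4 and 7 at day 5, where all genes had 23.7% and 21.2%, then 18.3% and 14.7%. NaJa-F had 6 and 4, then 5 and 3 (all genes 17.5% and 12%, then 9.70% and 8.50%). NaJa-G had 8 and 8, then 6 and 5 (all genes 35.3% and 28.7%, then 28.5% and 24.7%).

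Genes that work with solute carriers, such as sodium pump subunits, chloride channels and carbonic anhydrases, were followed with a list of 26, of which 16 were in the table. With encorafenib, 5 were higher and 5 lower in NaJa-D at day 1 and 4 and 5 at day 5. All genes had 23.7% and 21.2%, then 18.3% and 14.7%. NaJa-F had 6 and 3, then 4 and 1 (all genes 17.5% and 12%, then 9.70% and 8.50%). NaJa-G had 7 and 4, then 9 and 4 (all genes 35.3% and 28.7%, then 28.5% and 24.7%). The list medians at day 1 and day 5 were 0.185 and 0.081 in NaJa-D and 0.077 and 0.175 in NaJa-F. In NaJa-G they were 0.465 and 0.68, and over all genes the 6 medians ran from -0.017 to 0.044. In NaJa-G at day 5, Cftr, the chloride channel of intestinal secretion, was called higher by 2.40 ± 0.21. Also called higher there were the carbonic anhydrase Car2 (1.87 ± 0.068) and the sodium pump subunit Atp1b1 (1.74 ± 0.068). The 4 called lower there are not named here. In DMSO 10 of the 16 were lower in the G line, relative to the D line, and 2 higher, where 34.1% and 33.3% of all genes were.

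The 16 members called in none of the 6 encorafenib comparisons included the creatine importer Slc6a8, the fatty acid carrier Slc27a4, the zinc carriers Slc30a6 and Slc39a7 and the potassium-chloride family gene Slc12a9. Slc39a7 shares 80.7% of its exon length with Gm20427 on the same strand, so its value is uncertain. Slc6a8 stood at 183, 179.5 and 178 CPM in DMSO and 194, 198 and 197 CPM with encorafenib in NaJa-G at day 1, a difference of 0.12 ± 0.059. Slc12a9 changed by -0.16 ± 0.076 and 0.017 ± 0.081 in NaJa-D and NaJa-G at day 1. These values show the spread within which no change was called and do not show that the levels were equal.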

How the data were processed

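The authors deposited 1 table of raw read counts per gene and library. Per the labels, RNA was purified with the Universal RNA Purification kit (EURx), and the submitters' processing notes name Trimmomatic 0.39, STAR 2.5.2b and GRCm38/mm10. The counting tool and its strand setting are not given in the sources used here. The study states a filter on the summed count of a gene over all samples. Whether it alone left these 14107 genes is not stated. Samples were grouped by title into 12 groups. Gene symbols came from the GENCODE annotation of GRCm38, which matched 14064 identifiers, and 43 had no symbol. Counts were scaled by trimmed mean (edgeR 4.0.16) and fitted with limma-voom 3.58.1 in R 4.3.3, with 1 mean per group over all 34 libraries; p-values were two-sided and Benjamini-Hochberg adjusted over all genes, and a gene was called below 0.01. Contrasts were encorafenib against DMSO per line and day, lines and days in DMSO, and differences between responses. CPM values carry the trimmed-mean scaling. The script was tested on simulated data.

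The members, their substrate classes and the lists were chosen with earlier results of these data known. Named were the 5 highest and 5 lowest called members per drug or line contrast without overlap and with a mean of at least 2 log2 CPM, the 2 most abundant per class, those called alike in all 6 drug contrasts, those with opposite responses, and list members. Slc2a6, Slc5a7, Slc9a4, Slc12a9, Slc15a2, Slc27a1, Slc27a3, Slc29a3, Slc30a4, Slc30a5, Slc30a6, Slc39a7 and Slc41a3, the printed promoters and the day differences were chosen after their values were seen. Alternatives were edgeR's quasi-likelihood test, DESeq2 1.42.0, limma-trend, median-ratio or library size scaling, a filter on low counts, a replicate block, fits of the compared groups alone, other thresholds, each day alone, and each library left out. No sample column was left unmapped. A few genes are not reported here, in the text or drawn by name.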

Additional observations from a re-analysis of the deposited data

Results flagged for a closer look

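For 6 members the response to encorafenib was called in opposite directions in 2 lines on the same day, and the difference between the responses was called by limma as well. Slc16a10 at day 1 differed by 2.21 ± 0.17 on the log2 scale between NaJa-G (1.73) and NaJa-D (-0.47), with adjusted p = 2.19e-11. Its fall in NaJa-D was lost without DMSO replicate 3, the library that names another line (limma adjusted p = 0.038), without replicate 1 or 2 of encorafenib (0.0508 and 0.0231) and when only the groups compared were fitted (0.0464). Slc4a11 at day 5 differed by 1.51 ± 0.091 between NaJa-G (0.66) and NaJa-D (-0.85), with adjusted p = 3.75e-13. Slc44a4 at day 5 differed from NaJa-D (-0.40) by 1.12 in NaJa-G (0.72) and by 0.85 in NaJa-F (0.45), with adjusted p = 4.64e-06 and 3.09e-06 by limma. Slc12a4 at day 5 differed by 0.82 between NaJa-G (0.28) and NaJa-F (-0.54), with adjusted p = 2.31e-07. Its rise in NaJa-G was lost in 3 other fits, with limma adjusted p up to 0.0516 (without DMSO replicate 1). Slc35a1, the carrier that brings CMP-sialic acid into the Golgi, differed at day 1 by -0.54 between NaJa-G (-0.21) and NaJa-D (0.33), with adjusted p = 1.22e-05. Its fall in NaJa-G was lost with 1 of 3 libraries left out, with limma adjusted p up to 0.0197 (without replicate 1 of encorafenib), and its rise in NaJa-D when only the groups compared were fitted (0.0142). Slc44a1 at day 1 differed from NaJa-D (-0.22) by 0.46 in NaJa-F (0.25) and by 0.60 in NaJa-G (0.38), with adjusted p = 0.00146 and 9.89e-06. Its fall in NaJa-D was lost in several other fits, with limma adjusted p from 0.0105 (replicate block) to 0.085 (without replicate 1 of encorafenib), and without DMSO replicate 3 (0.0324), and its rise in NaJa-F with 1 of 4 libraries left out, with limma adjusted p up to 0.0548 (without DMSO replicate 3). The rise of Slc44a4 in NaJa-F was lost without replicate 2 of encorafenib (0.0106). Contrasts against NaJa-D on the same day share its libraries of that day.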

How the results depend on the processing

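Among the named values no direction reversed. DESeq2 moved the count of members over 1.5 times for the response difference of NaJa-F and NaJa-D at day 1 (34) and between days in NaJa-F (17). Fitting only the groups compared gave 49 for encorafenib in NaJa-D at day 1, 38 and 15 for time in NaJa-F and NaJa-G, 12 for the response difference of NaJa-F and NaJa-D at day 1 and 5 for that between days in NaJa-D. At an adjusted p below 0.05 the counts that moved so far were 62 (encorafenib, NaJa-F day 5), 48 (time, NaJa-F), 51 (response, NaJa-F and NaJa-D, day 1), 26 and 21 (response between days, NaJa-D and NaJa-F). A 2-fold change left 24 and 16, 9 and 6, and 47 and 39 members for encorafenib in the D, F and G lines at both days, 28, 49 and 27 between lines, 7, 3 and 8 with time, 3 and 5, 22 and 20, and 20 and 20 for responses between lines, and 3, 4 and 19 between days. With 1 library left out, ranges were 67 to 91 and 57 to 66 (encorafenib, NaJa-D, both days), 53 to 56 and 30 to 37 (NaJa-F), 94 to 102 and 71 to 84 (NaJa-G), 109 to 112, 119 to 123 and 88 to 98 between lines, 40 to 55, 18 to 21 and 33 to 45 with time, 18 to 50 and 18 to 32, 49 to 76 and 35 to 44, and 50 to 55 and 43 to 48 for responses between lines, and 11 to 29, 7 to 10 and 47 to 56 between days. A lone library left in an arm was assumed to vary like the other groups. Leaving out the library that names another line moved no count over 1.5 times, the most being time in NaJa-D (40). NaJa-D encorafenib day 1 replicate 3 moved 2 counts (29 and 50), NaJa-F encorafenib day 5 replicate 1 another (18) and NaJa-G DMSO day 5 replicate 1 another (33).

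The counts called alike in all 6 drug contrasts, added after seeing the data, were 15 and 11 with edgeR, DESeq2, median-ratio scaling and the replicate block, 14 and 11 with limma-trend, 14 and 10 with library size scaling, and 13 to 15 and 9 to 11 with 1 library left out. Library size scaling moved the median of all genes by over 0.1 in both contrasts against NaJa-D and with time in NaJa-D, and members then split 27 higher and 86 lower (NaJa-F) and 41 and 74 (NaJa-G). The replicate numbers did not pair the samples (median correlation of same-numbered deviations -0.00154, range -0.662 to 0.48). With the replicate block 79 and 64, 57 and 41, and 102 and 86 members were called for encorafenib, and no count moved over 1.5 times. The other alternatives kept every count within 1.5 times. In depth, calls were limited most for members under 1 CPM, and Slc5a7, Slc15a2 and Slc9a4 had too few counts in some lines for a fold change.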

Other observations

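Slc35a1, Slc35a2 and Slc35a3, which load nucleotide sugars into the Golgi, were in one class with 4 sugar phosphate carriers of family 37. Of these 7 carriers, 4 were lower and 0 higher in NaJa-F in DMSO, relative to NaJa-D, while NaJa-G had 5 lower and 1 higher, beside 29.0% and 32.6% of all genes, then 34.1% and 33.3%. Of the 12 orphan or other carriers, 6 were higher and none lower with encorafenib in NaJa-G at day 1, and 5 higher and 3 lower at day 5, beside 35.3% and 28.7% of all genes, then 28.5% and 24.7%.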
